A study of Mus musculus with 8 samples.

Results

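Heat shock chaperone genes were followed in lung mesenchymal cells of mice with and without bleomycin injury. The set was a list of 10 genes, and a gene was taken as measured where a row of the array table was annotated to it alone, with the brightest such row used. By this rule 9 of the 10 genes were measured, out of 22180 genes in all. Hsp90ab1, which encodes the constitutive cytosolic HSP90, was not analysed here. The list was called cytosolic, but Hspd1 encodes the chaperonin of the mitochondrial matrix, so it stands beside the others as an organelle chaperone.

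All mice were C57BL/6J, 11 weeks old and housed specific pathogen-free. The control group had been given PBS into the trachea and the bleomycin group bleomycin, a DNA-damaging drug that injures the lung and is used to provoke fibrosis. Both groups carried no allele or transgene that the labels name, and both were sampled on day 10. Cells negative for CD45, CD31 and EpCAM, the surface markers of leukocytes, endothelium and epithelium, were sorted from whole lungs, and 100 ng of their total RNA was labelled for 1-colour arrays. There were 4 arrays per group. Whether each array stands for its own animal is not stated. The tests therefore rest on how these arrays scatter, and that scatter may be technical. In bulk RNA, fewer cells of one type and less RNA per cell cannot be told apart.

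Heat shock proteins bind unfolded or newly made proteins and help them fold. HSP70 proteins do this in cycles driven by ATP, J-domain proteins such as DNAJB1 deliver clients and start the cycle, and HSP110 and BAG proteins exchange the nucleotide that ends it. HSP90 completes the folding of kinases and hormone receptors, and small heat shock proteins such as HSPB1 hold unfolded proteins without ATP. Heat, oxidants and proteotoxic drugs release the transcription factor HSF1, which binds heat shock elements and raises the inducible members many-fold, while the constitutive members serve unstressed cells. Enzymatic dissociation of tissue is also known to raise inducible chaperones and immediate early genes in isolated cells. Here Hspa1a, Hspa1b, Hspb1, Dnajb1, Hsph1, Hsp90aa1 and Bag3 were counted as inducible, and Hspa8 and Hspd1 as constitutive.

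Heat shock elements are inverted repeats of a 3-base unit, so the promoters were searched for exact repeats close to the start of transcription. RefSeq promoter sequences of build GRCm38.p6 were found for 7 members, and Hspa8 and Hsp90aa1 had no entry. Within the 250 bases before the start, neighbouring units were searched as GAANNTTC or TTCNNGAA, forms that read the same on both strands. Such a pair was present in 5 of the 7 members and in 12.8% of all 32851 promoters. Longer elements of 3 units, GAANNTTCNNGAA or TTCNNGAANNTTC, overlap the pairs and were present in 0.466% of all promoters. Of the members, Hspd1 alone had such an element. Dnajb1 and Bag3 had no pair in this window. Repeats with a mismatched base or outside the window were not searched for, so a missing match does not show that an element is absent. The stretches that hold the pairs are shown so that each gene's element can be set beside its values. Capitals mark the repeat units and each line reads 5′ to 3′ on the gene's strand.

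Hspa1a, chr17:34972233-34972280, minus strand: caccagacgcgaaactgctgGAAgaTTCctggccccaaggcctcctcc
Hspa1b, chr17:34959315-34959362, minus strand: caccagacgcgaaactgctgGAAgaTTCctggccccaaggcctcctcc
Hspb1, chr5:135887782-135887849, plus strand: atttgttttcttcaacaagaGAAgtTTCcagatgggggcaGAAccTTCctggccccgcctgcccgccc
Hsph1, chr5:149636342-149636389, minus strand: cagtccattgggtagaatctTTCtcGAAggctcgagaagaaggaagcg
Hspd1, chr1:55088053-55088082, minus strand: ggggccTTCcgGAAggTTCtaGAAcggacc

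The stretches of Hspa1a and Hspa1b were identical, and over the whole 250 bases these neighbouring genes had 247 bases in common. The Hspd1 element lies before only one of its annotated starts. The same bases on the opposite strand lie in the promoter of Hspe1, which encodes the co-chaperonin that caps the HSPD1 ring. A match describes the letters in the window and does not show that a factor binds there.

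The inducible HSP70 genes, the small heat shock protein gene Hspb1 and the HSP40 gene Dnajb1 were lower in mesenchymal cells of bleomycin-treated lungs. Of the 9 measured members 4 fell and none rose (limma, Benjamini-Hochberg adjusted over all 22180 genes, threshold 0.05). Over all genes 8.24% fell and 9.12% rose. The 4 that fell were all inducible members. The median log2 difference of the 7 inducible members was -0.68, against 0.027 for all tested genes. Neither constitutive member passed the test, and 3 inducible members, Hsph1, Hsp90aa1 and Bag3, did not pass it either.

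Hspa1a encodes the main stress-inducible HSP70. Its level in log2 intensity was 11.11, 10.98, 11.56 and 11.28 on control arrays 1 to 4 and 9.74, 9.82, 10.04 and 10.59 on bleomycin arrays 1 to 4. The groups did not overlap, and bleomycin replicate 4 lay nearest the controls. The difference was -1.19 ± 0.19 (log2, bleomycin minus control, ± SE, as in all differences below), or 2.28-fold lower, with a limma adjusted p of 0.00209. When each array was left out in turn, the difference ranged from -1.37 to -1.08 and the gene passed every time.

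Hspa1b, the neighbouring copy that encodes a nearly identical protein, had control levels of 10.49, 10.41, 10.94 and 10.74. On bleomycin arrays it was at 9.40, 9.69, 9.45 and 10.12, again with no overlap and with bleomycin replicate 4 the highest of its group. It fell by 0.98 ± 0.17 (limma adjusted p = 0.00334). Probes for these copies may share signal, so the pair is not 2 independent measurements.

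Hspb1 encodes HSP27, a small heat shock protein that also binds actin filaments. Control levels were 8.63, 9.01, 9.34 and 9.25 and bleomycin levels 7.86, 7.93, 8.14 and 8.66. Bleomycin replicate 4 lay just above control replicate 1, so the groups overlapped by that 1 pair of arrays. The gene fell by 0.91 ± 0.20, or 1.88-fold (limma adjusted p = 0.0101). A second, dimmer Hspb1 row, at 5.16 in control and 4.82 in bleomycin samples on average, did not pass.

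Dnajb1 encodes the J-domain partner of inducible HSP70. Its control levels were 8.205, 8.673, 8.959 and 8.887 and its bleomycin levels 7.842, 7.864, 8.082 and 8.202. Control replicate 1 was the low array of its group and sat almost level with bleomycin replicate 4. The gene fell by 0.68 ± 0.16 (limma adjusted p = 0.016). Every bleomycin array was below every control array in Dnajb1, Hspa1a and Hspa1b, 3 of the 9 members, as in 11.0% of all tested genes.

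**Figure D1:**
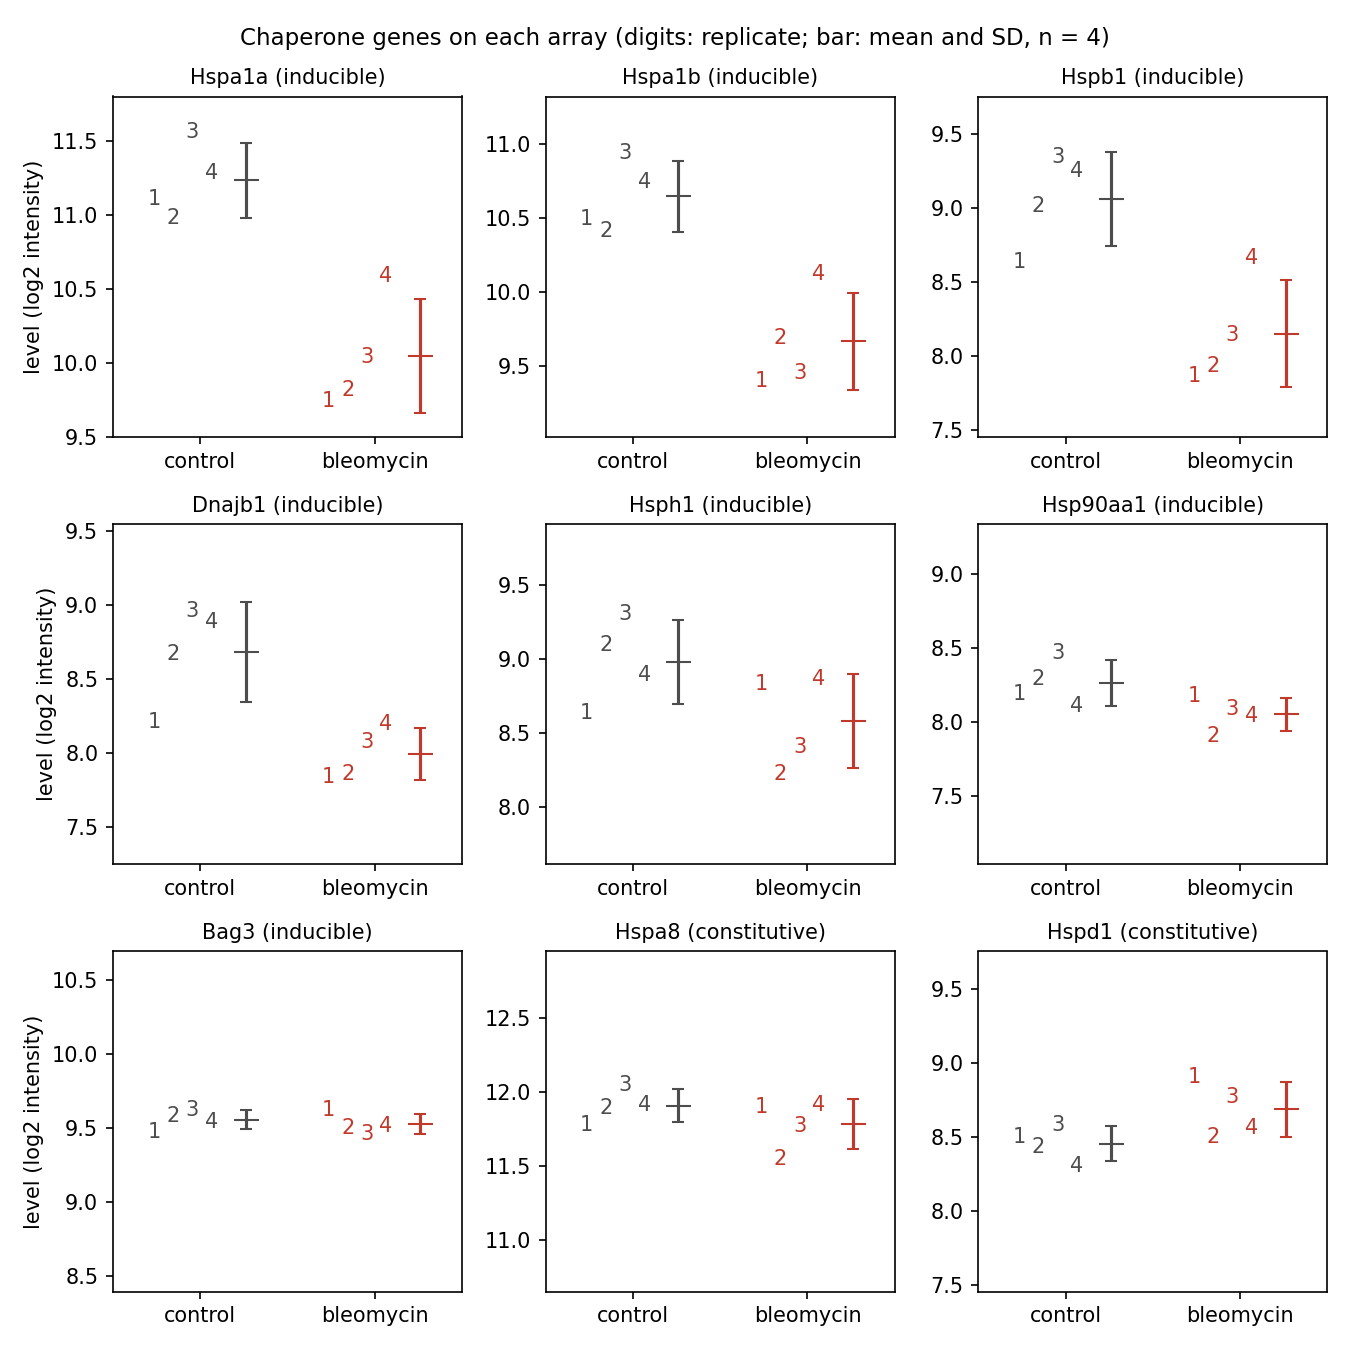
Level of each measured chaperone gene in log2 intensity (y axis, the same span in every panel) on control and bleomycin arrays; digits are replicate numbers and bars the mean ± SD of 4 arrays. Hspa1a, Hspa1b and Dnajb1 separate the groups, Hspb1 overlaps by 1 pair of arrays, and the other 5 genes overlap.

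Hsph1 encodes HSP110, the nucleotide exchange factor of HSP70. It was at 8.63, 9.09, 9.30 and 8.89 on control arrays and at 8.83, 8.22, 8.40 and 8.86 on bleomycin arrays. The arrays mixed, with bleomycin replicates 1 and 4 among the controls. The difference was -0.40 ± 0.18 (limma adjusted p = 0.159), with a 95% interval from -0.796 to -0.005 before any adjustment for the number of genes.

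Hsp90aa1 encodes the inducible cytosolic HSP90. Control arrays read 8.19, 8.29, 8.47 and 8.11 and bleomycin arrays 8.18, 7.91, 8.09 and 8.04. Bleomycin replicates 2, 3 and 4 lay under the control range and replicate 1 within it. The difference of -0.21 ± 0.10 did not pass (limma adjusted p = 0.202), and its 95% interval ran from -0.437 to 0.019.

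Bag3 encodes a co-chaperone that links HSP70 to small heat shock proteins and to autophagy of damaged cytoskeletal proteins. Its levels were 9.47, 9.58, 9.62 and 9.54 in controls and 9.62, 9.50, 9.46 and 9.51 in bleomycin samples. No member was steadier, with an SD of 0.07 in each group. The difference was -0.03 ± 0.08 (limma adjusted p = 0.853) and its 95% interval, -0.209 to 0.151, held only small changes in either direction.

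Hspa8 encodes HSC70, the constitutive HSP70. It stood at 11.78, 11.89, 12.05 and 11.91 on control arrays and at 11.90, 11.55, 11.77 and 11.91 on bleomycin arrays. Apart from bleomycin replicates 2 and 3, which were just below the controls, the arrays overlapped. The difference was -0.12 ± 0.11 (limma adjusted p = 0.48; 95% interval -0.359 to 0.112).

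Hspd1, the mitochondrial HSP60 gene, was the only measured member with a positive difference. Control levels were 8.50, 8.43, 8.58 and 8.30 and bleomycin levels 8.90, 8.50, 8.77 and 8.56. Bleomycin replicates 1 and 3 were above all controls and the other two overlapped with them. The difference of 0.23 ± 0.11 did not pass (limma adjusted p = 0.188; 95% interval -0.014 to 0.478). Its partner Hspe1, which shares the element shown above, differed by 0.51 ± 0.16 and did not pass either (limma adjusted p = 0.0569).

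**Figure D2:**
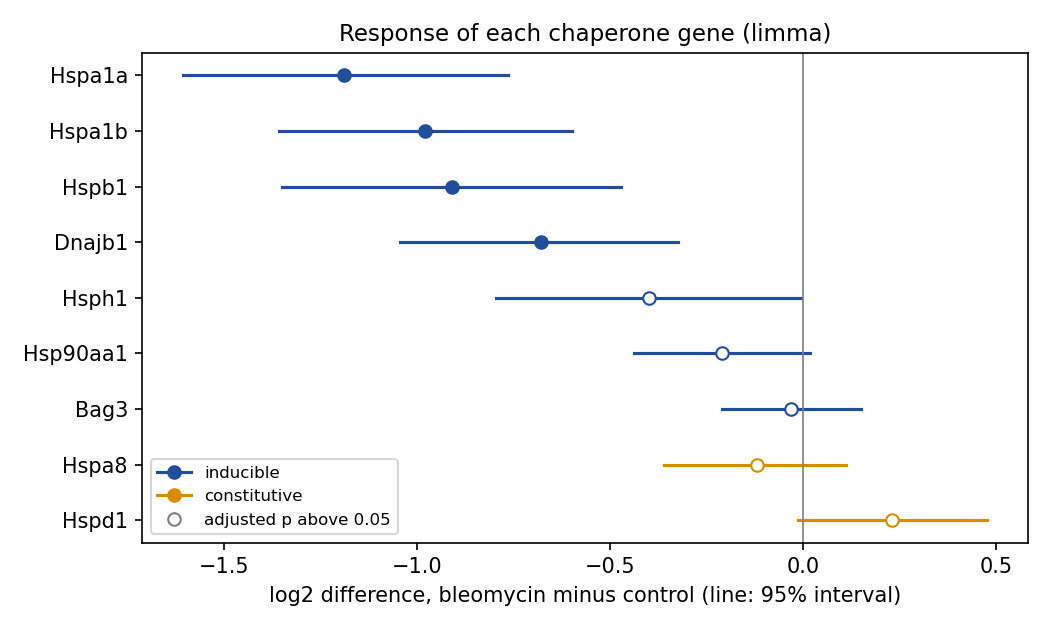
Log2 difference, bleomycin minus control (x axis), of each measured chaperone gene with its 95% interval; filled points passed the adjusted threshold of 0.05 and colours give the class. The 4 filled points are inducible genes between -1.19 and -0.68. The open points, 3 inducible genes and the constitutive Hspa8 and Hspd1, lie between -0.40 and 0.23.

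The response of inducible HSP70 was then set against that of constitutive HSP70 on the same arrays. The log2 level of Hspa1a minus that of Hspa8 was -0.67, -0.91, -0.49 and -0.63 on control arrays and -2.16, -1.73, -1.73 and -1.32 on bleomycin arrays, a difference of -1.06. For Hspa1b minus Hspa8 the control arrays read -1.29, -1.48, -1.11 and -1.17 and the bleomycin arrays -2.50, -1.85, -2.32 and -1.80, a difference of -0.85. In both the groups did not overlap. The exact permutation test over the 8 arrays gave p = 0.0286 for each, two-sided and adjusted over the 2 pairs, which is the smallest p that 4 against 4 arrays allow. With all single-gene rows of a gene averaged, which brings in 3 dimmer Hspa8 rows, the exact p was 0.0571 and the calls were lost. The ratio says how far the responses differ and not which gene is more abundant, since probes differ in brightness.

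Averaged over a class, the inducible members deviated from their control means by -0.71, -0.78, -0.68 and -0.35 on bleomycin arrays 1 to 4. The constitutive members deviated by 0.22, -0.15, 0.09 and 0.06. Inducible minus constitutive was -0.68 ± 0.22 (SD, n = 4) in bleomycin and ranged from -0.20 to 0.12 on control arrays. This contrast was a description with no test. It was weakest on bleomycin replicate 4, at -0.40, and strongest on replicate 1, at -0.93. Hspd1, counted as constitutive, is mitochondrial and was the only searched member with an element of 3 units. With Hspd1 left out, the mean contrast was -0.50.

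The inducible members did not vary as 1 block. After each group's mean was removed, the deviations over the 8 arrays were most alike between Hspa8 and Hsph1 (r = 0.92), between Hspb1 and Dnajb1 (r = 0.91) and between Hspa1a and Hspa1b (r = 0.90). Hspa1a followed Hspb1 at r = 0.88 and Hsp90aa1 only at r = 0.18. Hsp90aa1 was closest to Hspd1 (r = 0.82) and Hsph1 (r = 0.74). These correlations describe arrays that share their sample and hybridisation, and they carry no test. Among tested genes above the median level, the genes whose deviations were most like those of Hspa1a were Khnyn, Safb2, Cst3, Ptar1 and Sh2b3 (r from 0.979 to 0.967). For Hsp90aa1 they were Tmc4, Slbp, Dact2, Manf and Ppara (r from 0.972 to 0.929). Each set holds the highest of very many correlations over only 8 arrays, so values this high can arise between unrelated genes.

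Marker genes show what else moved between the samples. The shares to set beside each marker count are those over all genes, where 8.24% fell and 9.12% rose. Over the markers of cells that the gate removes, 13 of 17 epithelial and 13 of 16 endothelial genes fell and none rose. Their mean levels were 7.98 to 8.76 and 8.05 to 9.05 on control arrays and 6.47 to 7.23 and 7.19 to 7.66 on bleomycin arrays. Sftpc, the surfactant gene of alveolar type 2 cells, went from 12.08 to 9.76 and the endothelial receptor gene Calcrl from 11.10 to 10.05. Array medians of rows without a gene were 4.435 to 4.524 in control and 4.195 to 4.347 in bleomycin samples. Some markers stood near or under these, such as Epcam, at 4.99 and 4.42, and S100a8, at 3.19 and 2.98. The gate's own genes Pecam1, Ptprc and Epcam differed by -1.31, -0.48 and -0.57, and only Pecam1 passed. Of 19 leukocyte markers 8 rose, most of all C1qb (2.02), and 2 fell, most of all Cd79a (-0.84). The share that fell was near that of all genes. The other gene that fell, Gzma, was dim, at 4.80 in control and 3.98 in bleomycin samples. The brightest, Lyz2, differed by -0.57 and did not pass. Of 6 mesothelial markers 1 fell, Upk1b. Of 10 mesenchymal markers 7 rose, most of all Acta2 (1.92), and 1, the receptor gene Pdgfra, fell (-0.43). The brightest, the matrix gene Dcn, differed by -0.26 and did not pass. In Dcn every bleomycin array was below every control array, as in 11.0% of all tested genes. The list had a mean level of 10.70 to 10.89 in control and 11.36 to 11.69 in bleomycin samples.

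The 4 members that fell and the epithelial markers ran in opposite directions between control replicates 1 and 2 and control replicates 3 and 4. Control replicates 1 and 2 had the higher epithelial means, 8.76 and 8.60, and replicates 3 and 4 the lower ones, 8.05 and 7.98. Hspa1a, Hspa1b, Hspb1 and Dnajb1 were all higher on control replicates 3 and 4 than on 1 and 2. Within the bleomycin group, replicate 4 was highest both in epithelial markers, at 7.23, and in each of these 4 genes. Among the controls, Hsp90aa1 and Hspd1 were instead lowest on replicate 4, at 8.11 and 8.30.

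Control replicates 1 and 2, the richest in those markers, were also the lowest controls in the 4 members that fell. Leaving them out could therefore only enlarge the falls. Without control replicates 1 and 2, Hspa1a differed by -1.38, Hspa1b by -1.17, Hspb1 by -1.15 and Dnajb1 by -0.93. All 4 passed there (limma adjusted p at most 0.0145), where 4.47% of all genes were called lower. The mean of the epithelial and endothelial markers, which was lower on every bleomycin array, was also added to the fit as a covariate. With it, the same genes differed by -1.42, -1.17, -1.30 and -1.25. None of the 4 passed (limma adjusted p at least 0.164), and only 0.0271% of all genes were called lower.

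Because control replicates 1 and 2 differed from control replicates 3 and 4 in these markers, a split that the bleomycin replicates did not show, the members were also compared within each of these pairs of replicates. Within replicates 1 and 2, Hspa1a, Hspa1b and Hspb1 were called lower, at -1.27, -0.90 and -0.93, as were 3.76% of all genes. Dnajb1 differed by -0.59 and did not pass (limma adjusted p = 0.121). Within replicates 3 and 4, Dnajb1 alone was called lower, at -0.78, as were 0.992% of all genes. There Hspa1a, Hspa1b and Hspb1 differed by -1.11, -1.05 and -0.89 (limma adjusted p of 0.0592, 0.0775 and 0.072). Each of these fits had 2 arrays per group.

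Immediate early genes, which cells switch on within minutes of many stimuli, tissue dissociation among them, were lower too. Of 14 such genes 12 fell and none rose, against 8.24% and 9.12% of all genes, with a median difference of -0.55. The transcription factor genes Atf3, Fosb and Nr4a1 had the largest falls, with differences of -1.80 ± 0.21, -1.33 ± 0.15 and -0.93 ± 0.17. On bleomycin arrays 1 to 4 the mean deviation of the 14 genes from their control means was -0.85, -0.62, -0.63 and -0.41. It was weakest on replicate 4, as for the inducible chaperones. Control replicates deviated by at most 0.06 in the early genes and by -0.24 to 0.25 in the inducible chaperones. The part of cell isolation in these differences was not tested.

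**Figure D3:**
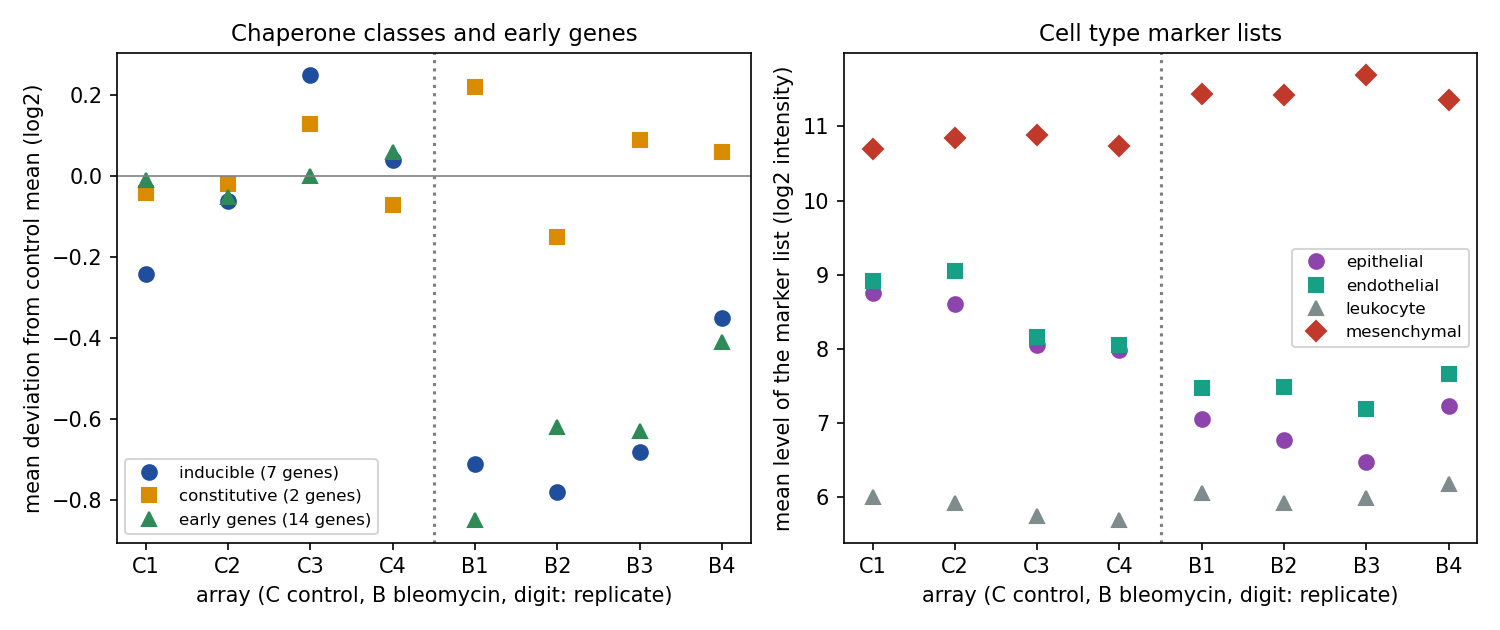
Left, mean deviation from the control mean in log2 (y axis) of the inducible members, the constitutive members and 14 immediate early genes on each array; right, mean log2 level of epithelial, endothelial, leukocyte and mesenchymal marker lists. Inducible chaperones and early genes are below 0 on all 4 bleomycin arrays, while the constitutive members stay between -0.15 and 0.22.

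The wider chaperone system did not move as a whole. Of 80 measured genes on 9 other chaperone lists 8 rose and 9 fell, near the share of all genes, and their median difference was 0.01. The count that rose was 3 to 5 when any 1 array other than bleomycin replicates 2 and 4 was left out. Of 10 other J-domain genes 3 fell and 1 rose, against 8.24% and 9.12% of all genes. Dnaja4, a cytosolic HSP40 that responds to heat, fell by 0.91 ± 0.16 (limma adjusted p = 0.00312), from 7.66 ± 0.26 to 6.74 ± 0.26 (SD, n = 4). Dnajb2 and Dnajb4 fell by 0.57 and 0.52. Dnajc2, a ribosome-associated chaperone, rose by 0.39 ± 0.10, and lost its call without control replicate 2, control replicate 4 or bleomycin replicate 1.

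Other small heat shock proteins went both ways. Hspb7, known from heart and muscle, rose from 5.97 ± 0.13 to 8.26 ± 0.51 (log2 intensity, SD, n = 4), a difference of 2.29 ± 0.21 (limma adjusted p = 9.88e-05). It passed in every fit that left out 1 array. Its control arrays read 6.16, 5.97, 5.89 and 5.88 and its bleomycin arrays 8.71, 8.39, 8.40 and 7.53. The groups were far apart, and bleomycin replicate 4 was again nearest the controls. Hspb8, the partner of BAG3, fell by 0.58 ± 0.12, while Hspb6 rose by 0.34 ± 0.09. The Hspb6 call was lost when any 1 array other than bleomycin replicate 4 was left out.

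On the list of heat shock factor genes and their inhibitor gene Hsbp1, 4 genes were measured. Of these 2 were called lower, against 8.24% of all genes, Hsf4, with a difference of -0.50, and Hsf5. The Hsf4 call was lost without control replicate 3 or bleomycin replicate 3. Hsf5 was dim, at 4.48 in controls and 3.89 in bleomycin samples. The array medians of rows without a gene were 4.435 to 4.524 and 4.195 to 4.347 in these groups, so Hsf5 stood at or under them in both and no fold is given. Hsf1 was not analysed here. Of 9 other HSP70 and HSP110 genes only Hspa12b, known from endothelium, passed, with a fall of 0.61 ± 0.13. It did not pass without control replicates 1 and 2.

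Of 14 measured co-chaperones of HSP90 1 was called higher and 2 lower, against 9.12% and 8.24% of all genes. Fkbp4 and St13, named after their values were seen, did not pass (differences of -0.37 and -0.21). Every bleomycin array was below every control array in both. That held for 4 of the 14 genes, with 1 in the reverse order, and for 11.0% of all tested genes. Stip1, the adaptor that joins HSP70 to HSP90, rose by 0.42 ± 0.12, and the myosin chaperone gene Unc45a and the kinase adaptor homologue Cdc37l1 fell by 0.44 and 0.37. Single arrays ended each of these calls, 5 of the 8 for Stip1, 4 for Cdc37l1 and 2 for Unc45a. None of 5 other BAG genes passed, and Bag6 was the brightest, with a difference of 0.08. The 8 subunits of the cytosolic chaperonin TRiC, which folds actin and tubulin, all had positive differences, between 0.10 and 0.28, and none passed. Cct2, the brightest, differed by 0.17 ± 0.10. None of 9 other mitochondrial chaperones passed, and the brightest, Hspa9, differed by 0.03. In that list 1 gene was called higher with the pair of replicates (1 and 2, or 3 and 4) as a block, with quantile normalization, without the dimmest 30% of genes and with a trended and robust eBayes. The same count was reached within replicates 1 and 2 and without control replicate 3 or bleomycin replicate 3. In the main fit Hspe1 had the largest positive difference on this list, 0.51, and was closest to the threshold (limma adjusted p = 0.0569).

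Chaperones of the endoplasmic reticulum, where collagen and other secreted proteins fold, included more genes that rose than fell. Among 14 measured genes 4 were called higher and 0 lower, against 9.12% and 8.24% of all genes, and the median was 0.21. Leaving out any 1 array other than control replicate 2 or bleomycin replicate 4 left 1 to 3 of these genes called. Pdia6 and Calr, a disulfide isomerase and a lectin chaperone, rose by 0.43 ± 0.10 and 0.35 ± 0.08, and the J-domain gene Dnajb11 by 0.33 ± 0.09. Calr did not pass without control replicate 3, and 5 of the 8 arrays ended the Dnajb11 call when left out. Without control replicates 1 and 2 none of these 3 genes passed. Of the 14 genes 4 had negative differences, the largest in Hspa5 at -0.29, and none of those passed.

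**Figure D4:**
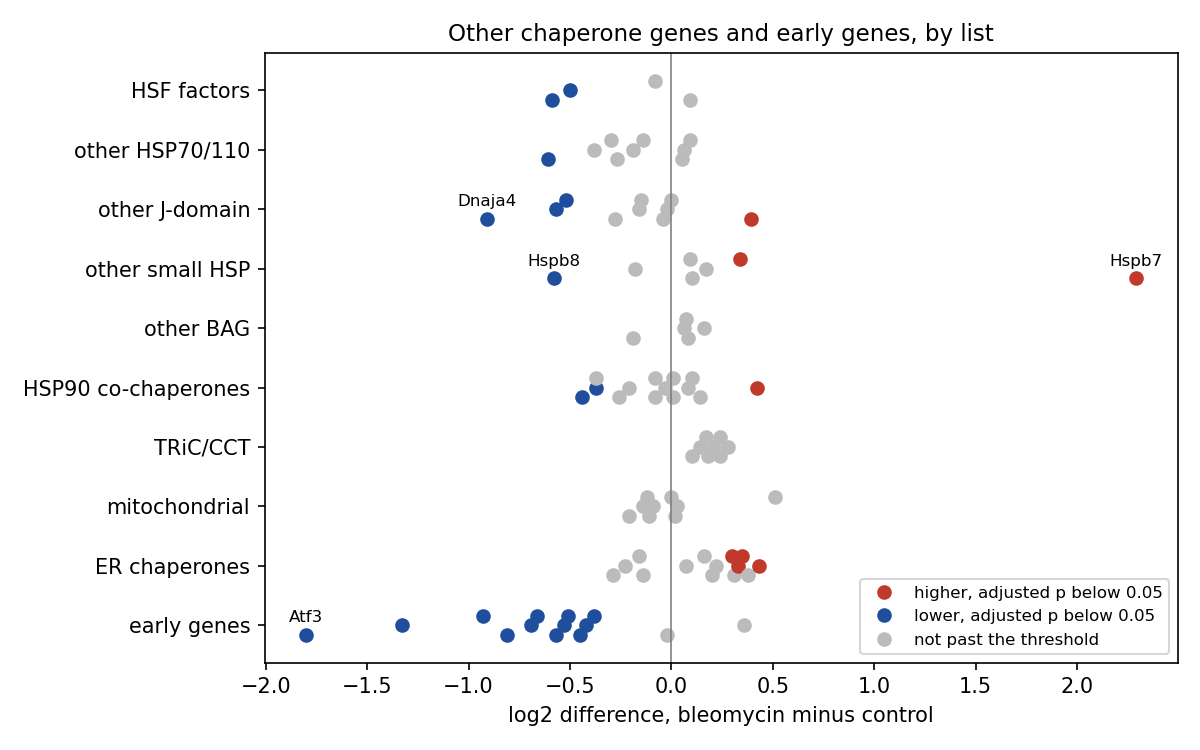
Log2 difference, bleomycin minus control (x axis), of every measured gene on 9 other chaperone lists and of 14 immediate early genes (rows); colours give the limma call. Calls go both ways in the chaperone lists, with Hspb7 far to the right at 2.29, whereas 12 early genes lie on the lower side down to Atf3 at -1.80.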

How the data were processed

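The deposited table held 1 value per probe set and array, taken as log2 intensity because values ran from 0.24 to 13.58. No scale is named in it. How the authors corrected background and normalized the values, and their genome build, is not given in the sources used here. Sample titles supplied the groups and replicate numbers. Of 41345 rows, 23521 were annotated to 1 gene, 1814 to several and 16010 to none. Only the first were used, with the brightest row of each gene. Array medians of tested genes ranged over 0.071, and values were used as deposited. Arrays give no read depth, so their number limits precision.

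All 22180 genes went into 1 limma 3.58.1 fit (lmFit, then eBayes; R 4.3.3). Tests were two-sided, p-values were adjusted by Benjamini-Hochberg, and the threshold was 0.05. HSP70 ratios were compared by exact permutation with Python 3.11.15 and pandas 2.3.3, and figures drawn with matplotlib 3.10.9. A planned ratio with Hsp90ab1 was not run. All members are named. From each other chaperone list and the early genes, up to 3 called genes per direction with the largest difference are named, or the brightest where none was called, and from each marker list the brightest. For Hspa1a and Hsp90aa1 the 5 genes of most similar deviations are named. Hspe1, Pdgfra, Acta2, C1qb, Cd79a, Hspa5, Fkbp4 and St13 were added after their values were seen. Members and lists were chosen with earlier results of these data known. Alternatives were quantile normalization, median centring, a filter on the dimmest 30%, other row choices, a trended and robust eBayes, array weights, the replicate number as a block, the pair of replicates (1 and 2, or 3 and 4) as a block, each such pair alone, left-out arrays and a marker covariate.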

Additional observations from a re-analysis of the deposited data

How the results depend on the processing

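Over 21 alternatives, the 4 chaperone genes that fell kept their direction, and each passed in 19. The exceptions were the marker covariate for all 4, replicates 3 and 4 alone for Hspa1a, Hspa1b and Hspb1, and replicates 1 and 2 alone for Dnajb1. The count of members called lower was therefore 1 within replicates 3 and 4 and 0 with the covariate, and 4 in every fit that left out 1 array. Hspa8 differed by 0.10 with the mean of its rows, and Bag3 by 0.04 within replicates 1 and 2. For Hspa1a minus Hspa8 and Hspa1b minus Hspa8, the values were -1.28 and -1.08 with the mean of rows (exact p = 0.0571), -1.15 and -0.79 within replicates 1 and 2, -0.97 and -0.92 within replicates 3 and 4, and -1.18 and -0.98 without control replicates 1 and 2. The last 3 settings have too few arrays to reach 0.05. Leaving out 1 array gave -1.20 to -0.92 and -0.96 to -0.73. Inducible minus constitutive ranged from -0.77 to -0.60 when 1 array was left out. It was -0.80 without control replicates 1 and 2 and -0.66 with Hsp90aa1 counted as constitutive. With Hspd1 left out, so that Hspa8 alone stood for the constitutive class, it was -0.50.

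Calls over all genes numbered 838 higher with 833 lower for replicates 1 and 2 alone, 503 and 220 for replicates 3 and 4 alone, 1205 and 992 without control replicates 1 and 2, and 42 and 6 with the covariate. Testing every row gave 2806 lower. Leaving out 1 array gave 1497 to 1987 higher and 1306 to 1883 lower. Centring arrays on their medians gave 1623 higher and 2314 lower genes, against 2022 and 1828 as deposited, and moved each difference by -0.05. Other chaperone genes called higher numbered 5 with median centring, with all rows and with the replicate block, 2 and 1 within replicates 1 and 2 and within 3 and 4, 1 without control replicates 1 and 2, 0 with the covariate and 3 to 8 with 1 array left out. Those called lower numbered 4 and 2 within replicates 1 and 2 and within 3 and 4, 0 with the covariate and 7 to 10 with 1 array left out. Early genes called lower numbered 6 and 2 within replicates 1 and 2 and within 3 and 4 and 0 with the covariate.

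Replicate numbers did not pair the samples number by number. Deviations of arrays with the same number correlated at 0.129, 0.063, 0.114 and 0.065, and not every array was closest to its own number. The deviations did share a split between replicates 1 and 2 and replicates 3 and 4. Control and bleomycin arrays correlated at 0.063 to 0.129 within replicates 1 and 2 and at 0.065 to 0.114 within 3 and 4. Across these pairs of replicates all correlations were negative, from -0.14 to -0.067. With the replicate block, 1937 genes were higher and 1838 lower, and 4 members were lower. The pair of replicates (1 and 2, or 3 and 4) as a block gave 2293 and 2168 genes, and again 4 members were lower.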

Other observations

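Hspa8 had 3 further rows of its own, dimmer than the one used. On the brightest of these, control replicates 1 to 4 read 8.56, 9.26, 8.45 and 8.16 and bleomycin replicates 1 to 4 read 9.51, 9.19, 8.04 and 8.33. Replicates 1 and 2 stood above 3 and 4 in both groups, a split that the row used did not show. The 3 rows differed between the groups by 0.16, 0.17 and 0.19, and none passed (limma adjusted p over all rows at least 0.702). One more row, annotated to Hspa8 together with another gene and so not used, was lower by -0.60 ± 0.12 (SE) in bleomycin samples (limma adjusted p over all rows = 0.0133). Its signal cannot be assigned to either gene.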
